A study of Mus musculus with 4 samples.

Results

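The 2-oxoglutarate-dependent oxygenases other than the TET enzymes were followed as a family of 49 genes in normal mouse prostate and in prostate tumours. The members were chosen by gene name: the JmjC histone demethylases and their relatives, the prolyl and asparaginyl hydroxylases of hypoxia-inducible factor (HIF), the collagen prolyl and lysyl hydroxylases, the AlkB homologues and a few further oxygenases. All 49 names were found, each in 1 row, among 24319 gene names. RNA from 2 normal prostates and 2 tumours was sequenced, in a study of TET expression and DNA hydroxymethylation in this model.

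All 4 tissues came from F1 males, the offspring of crosses between the strains C57BL/6 and FVB. Wild-type (WT) adults of 22 weeks gave the normal prostates. The tumours were late stage, from males heterozygous for TRAMP SV40 Tag, the large T antigen of a simian virus expressed from the rat probasin promoter, which is active in prostate epithelium. The sample labels give the tumours 24 weeks and the protocol 24 to 28 weeks, so genotype and age move together and cannot be told apart. The model is driven by 1 transgene in prostate epithelium, and the tissues were microdissected whole, with all the cell types they held. In such bulk RNA, fewer cells of a type and less RNA per cell cannot be told apart.

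These enzymes hold an iron atom and couple the oxidation of 2-oxoglutarate to succinate with the insertion of oxygen into a substrate. Hydroxylation of a methyl group on histone, DNA or RNA releases the methyl group, whereas hydroxylation of proline, lysine or asparagine changes the stability or binding of a protein. Because they consume oxygen and a metabolite of the citric acid cycle, they are studied as links between metabolism, hypoxia and chromatin in tumours.

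Levels are given as FPKM (fragments per length of transcript and per sequencing depth), a unit per length, divided in each library by a median-of-ratios factor; this is called scaled FPKM. Every fold change is a difference of log2(scaled FPKM + 1), tumour minus normal, with the standard error (SE) from limma and p-values adjusted over 13162 genes by the Benjamini-Hochberg method. A gene passed at an adjusted p under 0.05. With 2 libraries a group, an exact permutation test cannot go below a two-sided p of 0.333, and no source says how the tumours relate to each other, so p-values measure only the spread between these samples.

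The normal libraries held about 985509 and 1578847 fragments and the tumour libraries about 1431957 and 1141314, as read from the width of the deposited confidence intervals. Genes at 1 FPKM or more numbered 11090 and 10763 in the normals and 12236 and 13863 in the tumours. Luminal epithelial markers summed to 9083 and 8735 scaled FPKM in the normals and to 316 and 1123 in the tumours, with 4 of 8 at 0 in tumour 1, among them Pbsn. Neuroendocrine markers summed to 0.41 and 0.91 against 579 and 815, and all 7 were higher in the tumours. All 7 entered the test through the tumours alone, at 1 FPKM or more in at least 2 libraries, so they had to be higher there. Basal markers summed to 72.8 and 71.1 against 0 and 24.6, and smooth muscle markers to 643 and 596 against 23.2 and 123. For 4 of 4 basal and 6 of 7 smooth muscle markers both tumours lay below both normals, beside 33.3% of all genes tested. Macrophage markers summed to 18.6 and 13.9 against 166 and 501. Fibroblast markers summed to 123 and 99.0 in the normals, 55.4 in tumour 1 and 406 in tumour 2, a sum that Dcn dominates in the normals. Both tumours lay above both normals for 5 of the 8 fibroblast markers and below for 0, beside 37.7% and 33.3% of all genes tested. The median fibroblast marker stood at 2.24 and 2.32 against 6.20 and 36.4. The part of this cell makeup in the results that follow was not tested.

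Of the 49 members, 44 passed the filter of 1 FPKM or more in at least 2 libraries, and 5 of these 44 (11.4%) differed between tumour and normal, where 18.1% of all genes tested did. P4ha1 and Jmjd6 rose, against a background of 9.85% of genes higher, and Ogfod2, Alkbh7 and Phyh fell, against 8.27% lower. The share of members that passed was below that of genes at large in this fit, a gap that rests on few members and was not tested. The windows just before the start sites of P4ha1, Alkbh7 and Phyh are shown because these members passed, in both directions, and no annotated exon lies in that stretch. Each is the 250 bases before the annotated start, 5′ to 3′ on the gene's own strand, from the RefSeq promoter table of GRCm38.p6. Capitals mark ACGTG and GCGTG on either strand, the core letters that HIF binds; on the other strand they read CACGT and CACGC. P4ha1 lies at chr10:59323046-59323295 (+) with 3 matches, Alkbh7 at chr17:56997089-56997338 (+) with 3, of which a pair overlap as CACGTG, and Phyh at chr2:4918746-4918995 (+) with 0.
P4ha1: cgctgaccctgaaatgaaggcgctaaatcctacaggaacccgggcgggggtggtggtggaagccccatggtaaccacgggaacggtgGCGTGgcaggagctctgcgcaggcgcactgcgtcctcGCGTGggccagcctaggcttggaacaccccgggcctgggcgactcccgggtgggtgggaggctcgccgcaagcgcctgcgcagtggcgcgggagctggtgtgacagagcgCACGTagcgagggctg
Alkbh7: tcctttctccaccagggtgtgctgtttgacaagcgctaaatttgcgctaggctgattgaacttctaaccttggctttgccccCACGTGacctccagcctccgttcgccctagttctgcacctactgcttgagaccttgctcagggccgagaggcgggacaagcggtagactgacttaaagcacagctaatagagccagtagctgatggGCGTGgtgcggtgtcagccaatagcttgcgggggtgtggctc
Phyh: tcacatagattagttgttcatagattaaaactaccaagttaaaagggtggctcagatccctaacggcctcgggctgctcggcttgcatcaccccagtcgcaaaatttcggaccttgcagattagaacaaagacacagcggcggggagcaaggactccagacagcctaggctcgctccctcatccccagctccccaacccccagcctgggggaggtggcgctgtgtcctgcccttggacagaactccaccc
The letters thus stood before a gene that rose and before one that fell. RefSeq windows were matched by symbol for 39 of the 49 members, which gave 50 windows, and 28 of them (56.0%) held at least 1 match. Over all 32851 windows of the table the share was 38.6%. The members' windows were also richer in G and C, with a median of 59.6% against 52.4%, and this was not adjusted for. A match describes the letters only.

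**Figure D1:**
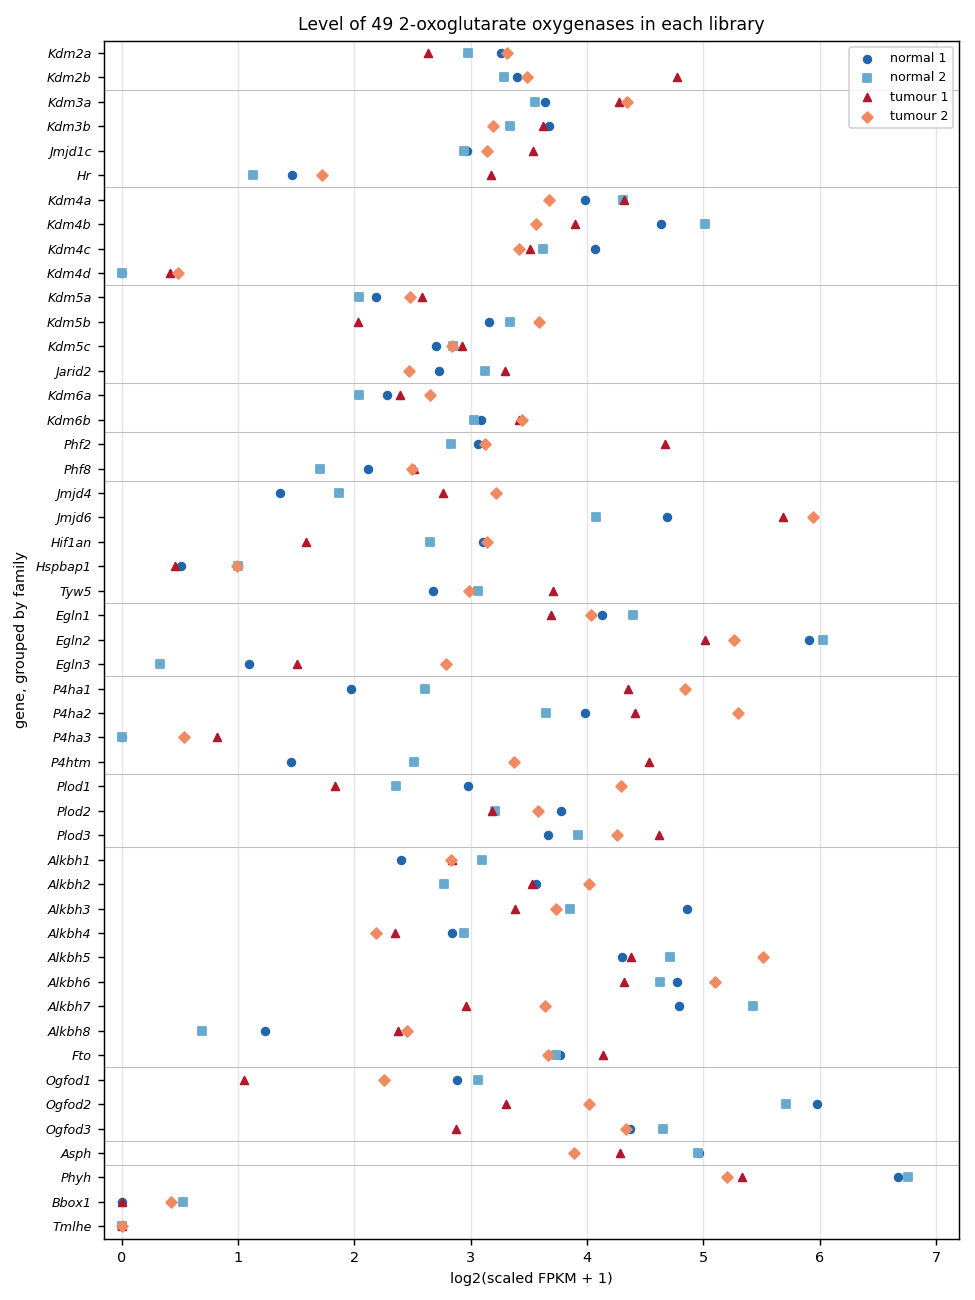
Level of each of the 49 members in each library, as log2(scaled FPKM + 1), grouped by family; circles and squares are the normal prostates, triangles and diamonds the tumours. Phyh had the highest member level in the normals, at 101 and 107 scaled FPKM. Tmlhe, whose row lies on an unplaced scaffold, was listed at 0 in all 4.

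The collagen prolyl hydroxylases hold the member with the largest rise. P4ha1, on chromosome 10 (59323296 to 59373304), encodes a catalytic alpha subunit of collagen prolyl 4-hydroxylase, which makes the hydroxyprolines that keep the collagen triple helix stable. Its scaled FPKM was 2.91 and 5.09 in the normals and 19.5 and 27.6 in the tumours. Both tumours lay well above both normals. The log2 fold change was 2.31 (SE 0.43, limma adjusted p = 0.0330), or 4.96-fold, and adjusted p-values ran from 0.000379 to 0.225 over 14 alternative settings, 11 of which kept the call. Without normal 1 the log2 fold change was 1.96 and without normal 2 it was 2.64. Both fits are among the 14, passed no gene at all and say nothing of P4ha1 alone. The median fibroblast marker was higher in both tumours too, and its part in the rise of P4ha1 was not tested.

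Its paralogue P4ha2, another catalytic alpha subunit, measured 14.8 and 11.5 in the normals against 20.3 and 38.4 in the tumours. The groups did not overlap, and the log2 difference of 1.04 (SE 0.42, limma adjusted p = 0.138) did not pass. P4htm, a transmembrane prolyl hydroxylase of the endoplasmic reticulum, measured 1.74 and 4.70 against 22.1 and 9.37. Both tumours lay above both normals, yet the tumours were 2.23-fold apart from each other. The normals, from about 3.0 and 11.9 fragments, were 1.06 apart on the log2 scale. The log2 difference between the groups, 1.97 (SE 0.62), did not pass (limma adjusted p = 0.0856). P4ha3, the remaining alpha subunit, was listed at 0 in the normals and at 0.765 and 0.450 in the tumours, about 4 and 2 fragments, and was not tested.

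The alpha subunits work as tetramers with P4hb, protein disulfide isomerase, which also helps other secreted proteins fold. P4hb measured 975 and 1169 in the normals and 146 and 504 in the tumours, a log2 difference of -1.97 (SE 0.62) that did not pass (limma adjusted p = 0.0836). Per 100 units of P4hb, P4ha1 stood at 0.298 and 0.435 in the normals and at 13.3 and 5.48 in the tumours, on the per-length scale. P4ha1 and P4ha2 together stood at 1.82 and 1.42 against 27.2 and 13.1. These ratios, set up after the values were seen and not tested, are the same under any scaling by a constant factor in each library. Quantile normalization is not of that kind. The tumours lay above the normals in both ratios.

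The lysyl hydroxylases Plod1, Plod2 and Plod3 prepare collagen lysines for crosslinking. Of the 3, 0 passed with limma or voom, beside 18.1% of all genes with limma. At an unadjusted limma p under 0.05 there were 0, beside 39.8%. Plod1 measured 6.87 and 4.13 in the normals but 2.57 in tumour 1 and 18.6 in tumour 2, so that the tumours lay on both sides of the normals. Plod2 measured 12.7 and 8.23 against 8.10 and 10.9, which overlap. Plod3, which also adds glucose to hydroxylysine, measured 11.7 and 14.1 against 23.5 and 18.2; the groups did not overlap, with a log2 difference of 0.65 (SE 0.33, limma adjusted p = 0.211). Of 12 collagen chain genes tested 0 passed with limma or voom, beside the same 18.1%. At an unadjusted limma p under 0.05, 2 were higher and 0 lower, beside 39.8% in either direction. Their median log2 difference was 0.75. Col1a1, a chain of the main fibrillar collagen named here after its values were seen, measured 3.94 and 3.65 in the normals, 12.7 in tumour 1 and 81.0 in tumour 2. Without tumour 1 the median log2 difference of the collagen genes was 1.43, beside -0.04 over all genes. Without tumour 2 it was -0.34, beside -0.14. The tumours thus differed from each other in collagen RNA, as they did in fibroblast markers. Of 11 collagen folding and crosslinking genes 0 passed either, with limma or voom, beside the same 18.1%. Unadjusted, 1 was higher and 2 lower with limma, beside 39.8%.

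Jmjd6, on chromosome 11 (116837432 to 116843449), encodes a JmjC lysyl hydroxylase of splicing factors. It measured 24.8 and 15.9 in the normals and 50.4 and 60.3 in the tumours. Both tumours exceeded both normals, by a log2 fold change of 1.43 (SE 0.34, limma adjusted p = 0.0496), or 2.69-fold. The adjusted p lay at the edge of the threshold and ran from 0.00203 to 0.329 over the alternatives, 6 of 14 of which kept the call. The log2 fold change was 1.68 without normal 1 and 1.10 without normal 2, in fits that passed no gene at all. An exon of Jmjd6 overlaps Mettl23 on the opposite strand over 172 bases, and with no strand stated for the counting those reads cannot be told apart. The same limit holds for other members, since 18 in all have such an overlap. The longest are in Kdm3b (3292 bases) and Asph (2302 bases).

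Other JmjC hydroxylases act on proteins or RNA outside chromatin. Jmjd4, which in human cells hydroxylates a translation termination factor, measured 1.57 and 2.65 against 5.79 and 8.30. The groups did not overlap, but the log2 difference of 1.38 (SE 0.45) did not pass (limma adjusted p = 0.0904). Tyw5, which hydroxylates a modified base of transfer RNA, measured 5.38 and 7.34 against 12.1 and 6.93, which overlap. Hspbap1, whose product binds a small heat shock protein, was too low to test, at 0.423 and 1.0 against 0.375 and 0.994.

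The HIF hydroxylases mark HIF alpha subunits for destruction or block their activity when oxygen is present. Of the 4 tested 0 passed, beside 18.1% of all genes, and 4 genes are too few to compare the shares. At an unadjusted limma p under 0.05, 0 were higher and 1 lower, beside 39.8% of all genes in either direction. With voom 0 passed. Egln2 measured 58.9 and 64.2 in the normals and 31.2 and 37.4 in the tumours, a log2 difference of -0.83 (SE 0.27, limma adjusted p = 0.0887) with groups that did not overlap. Its direction depended on the scaling, since it was 0.09 with FPKM as deposited. Egln1, regarded as the main HIF prolyl hydroxylase in most cells, measured 16.5 and 20.0 against 11.9 and 15.4, and its log2 difference of -0.40 became 0.49 with FPKM as deposited. Egln3, itself a HIF target, measured 1.13 and 0.255 in the normals, from about 3 and 1 fragments, and 1.84 and 5.89 in the tumours. It was the 1 member that passed the filter through the tumours alone, and it did not pass the test (log2 difference 1.44, SE 0.60, limma adjusted p = 0.145). Hif1an, the asparaginyl hydroxylase of HIF, measured 7.62 and 5.26 against 2.00 and 7.83. The tumours lay on both sides of the normals for Hif1an.

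Around these enzymes, 8 of 19 HIF target genes tested were higher in the tumours and 0 lower, with a median log2 difference of 1.15, beside 0.07 over all genes. The log2 difference was positive for 14 and negative for 5. At an unadjusted limma p under 0.05, 9 were higher and 2 lower. The targets had been picked with earlier results known and include the glycolytic genes that proliferating cells share. Ndrg1, a stress-response gene, measured 2.42 and 1.88 against 13.6 and 17.0, or 5.17-fold (limma adjusted p = 0.0282), with exons that overlap Gm17035 and Gm2895 on the opposite strand. Pfkfb3, which drives glycolysis, measured 2.73 and 2.62 against 17.5 and 16.8, or 4.94-fold (adjusted p = 0.0267). Adm, the vasodilator adrenomedullin, measured 0.790 and 1.07 against 5.96 and 6.18, or 3.67-fold (adjusted p = 0.0398), from 1 and 2 fragments in the normals, and passed the filter through the tumours alone. Eno1, an enolase with near-identical copies that make its level uncertain, measured 16.7 and 41.9 against 169 and 278 (adjusted p = 0.0312). The other 4 that rose, named for completeness, were Tpi1 (which overlaps Spsb2), Ldha and Pgk1 of glycolysis and Bnip3l of mitophagy.

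Of all genes tested, 9.85% were higher. The number of HIF targets that rose was 14 with FPKM as deposited (28.0% of all genes higher) and 9 with scaling to the FPKM sum (19.3%). It was 8 with quantile normalization (6.88%) and 5 when voom was used (7.95%). Without tumour 1, 9 rose and 2 fell (11.6% and 20.0% of all genes). Without tumour 2, 9 rose and 3 fell (19.7% and 30.8%). If low genes were kept, 0 rose, beside 1.44% of all genes. The fits that left out a normal passed no gene at all. All 8 cell cycle markers rose with them, from 41.4 and 42.3 summed scaled FPKM in the normals to 1494 and 768 in the tumours. Some of these markers passed the filter through the tumours alone. The part of the 8 markers in the result was not tested. Of 5 HIF subunit and VHL genes tested, 1 passed: Arnt2, a partner subunit best known from neurons, was listed at 0 in both normals, at 22.4 in tumour 1 and at 7.33 in tumour 2 (limma adjusted p = 0.0269). It passed the filter through the tumours alone, and its exons overlap Gm30873 on the opposite strand. Hif1a measured 9.70 and 7.74 against 16.6 and 21.2 (log2 difference 1.03, SE 0.35, limma adjusted p = 0.0974) and Epas1, the alpha subunit prominent in endothelium, measured 3.98 and 10.7 against 0.241 and 1.89 (log2 difference -2.01, SE 0.68, limma adjusted p = 0.0966). The groups of both alpha subunits did not overlap, in opposite directions, and neither passed. Vhl, the ubiquitin ligase subunit that binds hydroxylated HIF alpha, measured 5.53 and 5.98 against 16.5 and 7.88 and did not pass (limma adjusted p = 0.225).

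**Figure D2:**
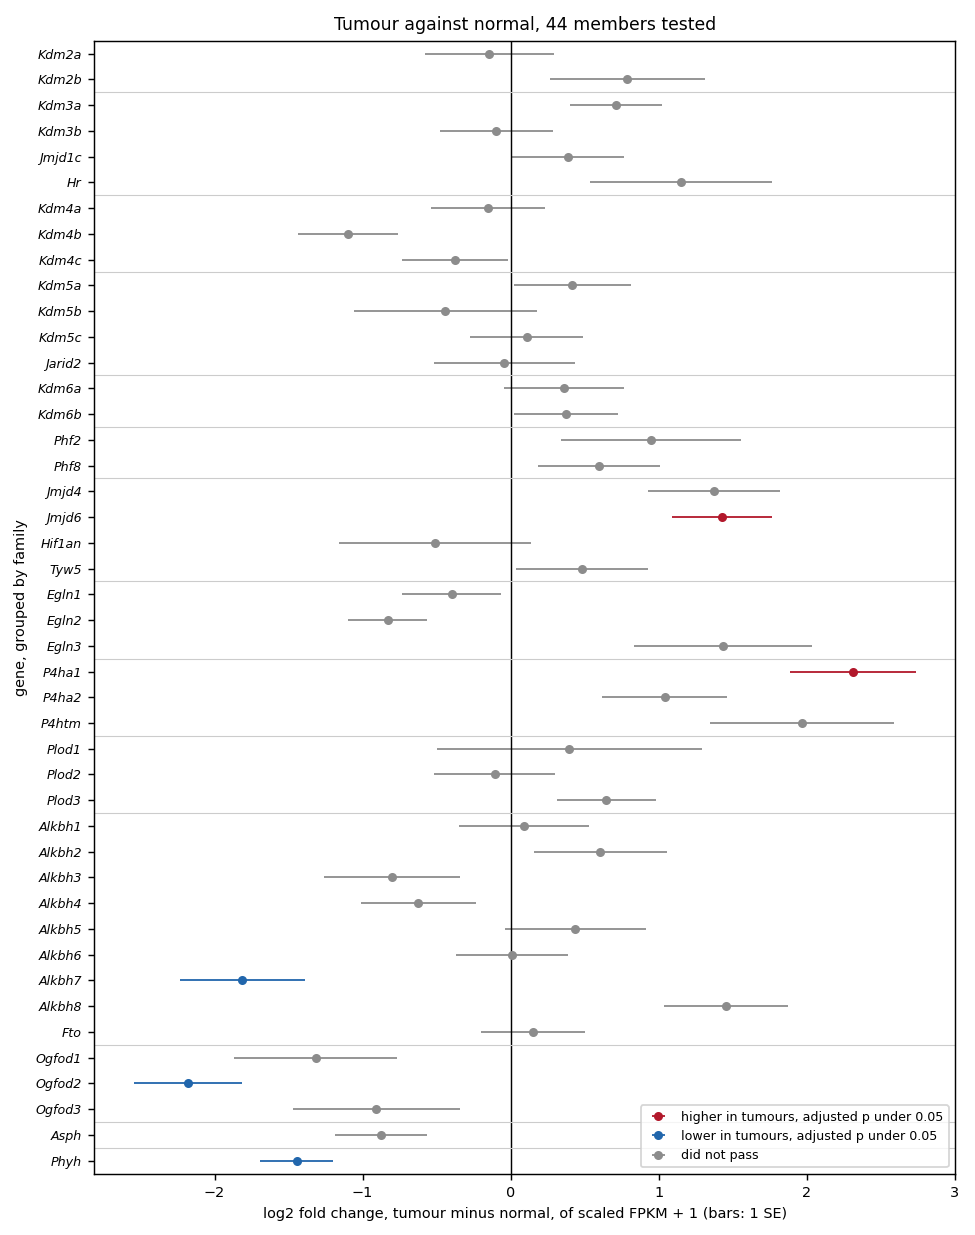
Log2 fold change, tumour minus normal, of the 44 members tested, with bars of 1 SE; red and blue mark the members that passed. P4ha1 (2.31) and Jmjd6 (1.43) stand to the right of 0 and Ogfod2 (-2.18), Alkbh7 (-1.81) and Phyh (-1.44) to the left.

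The histone demethylases, which take methyl groups off lysines of histone tails, were counted together with their relative Jarid2. Of these 18 genes 17 were tested, and 0 passed with limma or voom, beside 18.1% of all genes with limma. At an unadjusted limma p under 0.05, 0 were higher and 1 lower, beside 39.8% of all genes in either direction. The gap was not tested. The Kdm3 family removes methyl groups from histone H3 lysine 9. Kdm3a, a demethylase induced by hypoxia in many cells, measured 11.5 and 10.8 in the normals and 18.4 and 19.3 in the tumours. Its groups were narrow and did not overlap, but the log2 difference was 0.71 (SE 0.31, limma adjusted p = 0.160). Kdm3b measured 11.7 and 9.12 against 11.3 and 8.16, and Jmjd1c 6.83 and 6.67 against 10.6 and 7.81. Hr, a nuclear receptor corepressor of this family, measured 1.76 and 1.19 against 8.05 and 2.30, high in tumour 1.

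Kdm4 enzymes act on trimethylated lysines 9 and 36 of histone H3. Kdm4b, which partners the androgen receptor and is known for that in prostate cancer, measured 23.9 and 31.3 in the normals and 13.9 and 10.8 in the tumours. The groups did not overlap, with a log2 difference of -1.10 (SE 0.34, limma adjusted p = 0.0804); it was -0.20 with FPKM as deposited. It passed as lower when tumour 1 or tumour 2 was left out. Kdm4a, at 14.8 and 18.8 against 18.9 and 11.7, overlapped between groups, and Kdm4c, at 15.7 and 11.3 against 10.4 and 9.69, was lower in both tumours without passing. Kdm4d was listed at 0 in the normals and at 0.336 and 0.395 in the tumours, about 2 fragments in each, and was not tested.

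Kdm5 enzymes remove methyl groups from lysine 4 of histone H3, a mark of active promoters. Kdm5b measured 7.94 and 9.10 in the normals, 3.08 in tumour 1 and 11.0 in tumour 2, on both sides of the normals. Kdm5a, at 3.55 and 3.10 against 4.97 and 4.56, was higher in both tumours without passing, and Kdm5c, at 5.51 and 6.18 against 6.57 and 6.16, overlapped. Jarid2, a JmjC protein without demethylase activity that works with Polycomb repressive complex PRC2, measured 5.62 and 7.72 against 8.84 and 4.53. Kdm6a and Kdm6b remove the lysine 27 methylation that PRC2 writes. Kdm6a measured 3.86 and 3.11 against 4.24 and 5.28, and Kdm6b 7.52 and 7.14 against 9.69 and 9.89. Both were higher in each tumour than in each normal, by margins that did not pass. Ezh2, the PRC2 methyltransferase they oppose, measured 6.49 and 1.81 against 43.2 and 19.5 (log2 difference 2.71, SE 0.67) and did not pass either (limma adjusted p = 0.0526). Of the 11 PRC2 and flavin demethylase genes tested 0 passed with limma or voom, beside 18.1% of all genes with limma. At an unadjusted limma p under 0.05, 2 were higher and 2 lower, beside 39.8% in either direction.

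Kdm2b, which brings a Polycomb complex to unmethylated CpG islands, measured 9.54 and 8.74 in the normals, 26.3 in tumour 1 and 10.2 in tumour 2. Phf2, a demethylase with a plant homeodomain finger, measured 7.36 and 6.11 against 24.4 and 7.69. In both genes tumour 1 stood apart and tumour 2 lay just above the normals. Kdm2a overlapped between groups, at 8.57 and 6.87 against 5.21 and 8.95. Phf8, a relative of Phf2, was at 3.33 and 2.25 against 4.71 and 4.65, higher in both tumours without passing.

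Among the AlkB homologues, which demethylate nucleic acids or proteins, Alkbh7 fell. Alkbh7, on chromosome 17 (56997339 to 56999336), encodes a mitochondrial protein known for a role in programmed necrosis. It measured 26.7 and 42.1 in the normals and 6.76 and 11.5 in the tumours, from about 9.5 and 13.7 fragments in the tumours. Both tumours lay below both normals, by 1.81 on the log2 scale (log2 fold change -1.81, SE 0.42, limma adjusted p = 0.0481), or 3.51-fold. The adjusted p ran from 0.000345 to 0.319 over the alternatives, and only 3 of 14 kept the call. The log2 fold change was -2.20 without normal 1 and -1.54 without normal 2, in fits that passed no gene at all. With FPKM as deposited it was -0.93.

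Alkbh8, a methyltransferase and hydroxylase of transfer RNA, measured 1.35 and 0.610 in the normals and 4.20 and 4.47 in the tumours. The groups did not overlap, but the normals rested on about 3 and 2 fragments, and the log2 difference of 1.45 (SE 0.42) did not pass (limma adjusted p = 0.0702). Alkbh2 and Alkbh3 repair alkylated bases. Alkbh2 measured 10.8 and 5.84 against 10.5 and 15.2, and Alkbh3 28.0 and 13.5 against 9.43 and 12.3. Alkbh1 measured 4.27 and 7.58 against 6.15 and 6.12, Alkbh4 6.16 and 6.67 against 4.10 and 3.54, and Alkbh6 26.3 and 23.7 against 18.9 and 33.4. The groups did not overlap for Alkbh3 and Alkbh4, which were lower in both tumours without passing, and overlapped for the other 3.

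Fto and Alkbh5 take the methyl group off N6-methyladenosine in messenger RNA, and neither passed. Fto measured 12.6 and 12.3 against 16.6 and 11.7, a log2 difference of 0.15. Alkbh5 measured 18.7 and 25.2 against 19.7 and 44.6, high in tumour 2. Among 12 genes that write or read this mark, 1 rose and 1 fell, beside 9.85% and 8.27% of all genes tested. Rbm15b, a writer subunit whose exons overlap Dcaf1 on the opposite strand, measured 3.97 and 2.91 against 19.7 and 12.3 (log2 fold change 1.91, SE 0.43, limma adjusted p = 0.0450). Wtap, the regulatory subunit of the writer, measured 90.0 and 86.0 against 39.0 and 20.9 (log2 fold change -1.59, SE 0.37, limma adjusted p = 0.0488). With voom 0 of the 12 passed, beside 7.95% of all genes higher and 7.51% lower.

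Ogfod2, a little-studied member of the Ogfod group on chromosome 5 (124112338 to 124115476), had the largest fall of the members that passed. Its level was 61.9 and 51.3 in the normals and 8.90 and 15.2 in the tumours. Both tumours lay far below both normals, by 2.18 on the log2 scale (log2 fold change -2.18, SE 0.37, limma adjusted p = 0.0287), or 4.53-fold. Of 14 alternatives 10 kept the call, with adjusted p-values from 2.34e-05 to 0.206. The log2 fold change was -2.11 without normal 1 and -2.36 without normal 2, in fits that passed no gene at all. With FPKM as deposited the log2 fold change was -1.28 and did not pass (adjusted p = 0.0780). Ogfod1, which hydroxylates a proline of a ribosomal protein, measured 6.36 and 7.34 against 1.08 and 3.76, and Ogfod3 19.7 and 24.2 against 6.35 and 19.1. Both were lower in each tumour than in each normal without passing, most so in tumour 1.

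Asph hydroxylates aspartate and asparagine in epidermal growth factor-like domains. It measured 30.3 and 30.0 in the normals and 18.5 and 13.8 in the tumours, without overlap, and the log2 difference of -0.87 (SE 0.31, limma adjusted p = 0.108) became 0.03 with FPKM as deposited. Among 12 other 2-oxoglutarate oxygenases tested outside the member list, 2 rose and 1 fell. Of all genes tested, 9.85% rose and 8.27% fell. Asphd2, which shares the catalytic domain of Asph, was listed at 0 in both normals, at 23.6 in tumour 1 and at 9.12 in tumour 2 (limma adjusted p = 0.0230). Asphd1, of the same kind, stood at 0 in both normals, 23.5 in tumour 1 and 6.15 in tumour 2 (adjusted p = 0.0330), with exons that overlap Kctd13. Both passed the filter through the tumours alone, so a gene so chosen had to be higher there. Jmjd8, a JmjC protein of the endoplasmic reticulum whose exons overlap Stub1, measured 84.7 and 123 in the normals and 11.8 and 18.3 in the tumours, or 6.57-fold lower (log2 fold change -2.72, SE 0.36, limma adjusted p = 0.0219).

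Small-molecule oxygenases closed the family. Phyh, on chromosome 2 (4918996 to 4938743), hydroxylates phytanoyl-CoA in the peroxisome, the first step in breaking down branched-chain phytanic acid. It measured 101 and 107 in the normals and 39.3 and 35.9 in the tumours. The members of each group lay close together and the groups were far apart, with a log2 fold change of -1.44 (SE 0.25, limma adjusted p = 0.0294), or 2.72-fold lower. Of 14 alternatives 8 kept the call, with adjusted p-values from 0.000850 to 0.237. The log2 fold change was -1.54 without normal 1 and -1.44 without normal 2, in fits that passed no gene at all. With FPKM as deposited it was -0.52 and did not pass. The summed luminal, basal and smooth muscle markers were lower in the same tumours, and their part in the falls of Phyh, Ogfod2 and Alkbh7 was not tested.

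Tmlhe and Bbox1 catalyse the first and last steps of carnitine synthesis. Tmlhe was listed at 0 in all 4 libraries. Its row lies on an unplaced scaffold of chromosome X, and its name is absent from GENCODE release M21. Whether the 0 comes from annotation was not tested. Bbox1 was listed at 0 and 0.442 in the normals and at 0 and 0.341 in the tumours, about 1 fragment where above 0. Neither gene was tested between the groups. Of 7 carnitine-using genes tested 0 passed with limma or voom, beside 18.1% of all genes with limma. At an unadjusted limma p under 0.05, 0 were higher and 2 lower, beside 39.8% in either direction. Of 7 genes for enzymes that clear succinate, fumarate or related inhibitors of these oxygenases 0 passed with limma or voom, beside the same 18.1%. At an unadjusted limma p under 0.05 there were 0, beside 39.8%. Their median log2 difference was 0.07.

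**Figure D3:**
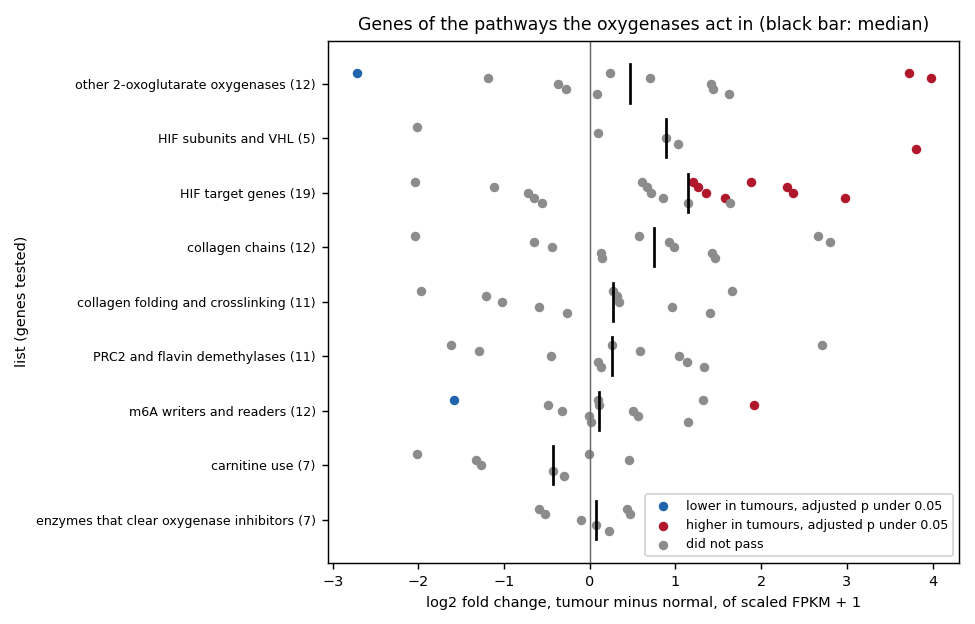
Log2 fold change, tumour minus normal, of each gene tested in 9 lists of genes around the oxygenases, with the number tested in parentheses and black bars at the medians. The HIF targets have the highest median, 1.15, and 8 red points; the carnitine genes have the lowest, -0.43.

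Read over the whole family, 11 of 44 members (25.0%) had an unadjusted p under 0.05, below the 39.8% of all genes. The tumours lay wholly above the normals for 17 tested members and wholly below for 12, together 65.9%; of all genes tested 37.7% lay above and 33.3% below, together 71.1%. The median member differed by 0.13 on the log2 scale and the median gene by 0.07. The members' summed level was 670 and 672 scaled FPKM in the normals and 573 and 641 in the tumours. Both shares of members lay below those of all genes, by gaps that rest on few members and were not tested.

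The 2 tumours were further apart than the 2 normals. Between the tumours 11 of 44 members (25.0%) differed at least 2-fold on the log2(scaled FPKM + 1) scale, beside 30.5% of all genes; between the normals 2 did (4.55%), beside 8.08%. With 1 library on each side these are values without a test. Higher in tumour 1 were 4 chromatin or membrane members: Phf2 (2.93-fold), Hr (2.74-fold), Kdm2b (2.43-fold) and P4htm (2.23-fold). Higher in tumour 2 were 7: Plod1 (5.48-fold), Hif1an and Kdm5b (both 2.94-fold), Ogfod3 (2.74-fold), Egln3 (2.43-fold), Ogfod1 (2.29-fold) and Alkbh5 (2.20-fold). All 5 members that passed lay within 2-fold between the tumours, but the test itself favours genes whose tumours lie close together. Plod1 was high in the tumour with the higher fibroblast markers; whether these bear on it was not tested.

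**Figure D4:**
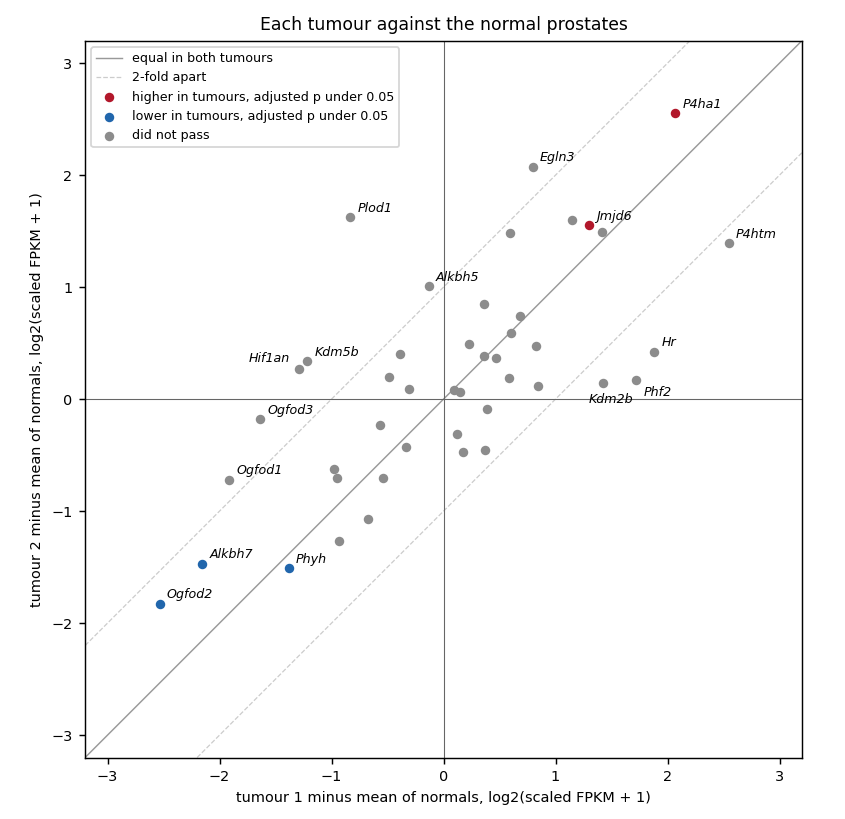
Difference of tumour 1 (horizontal) and tumour 2 (vertical) from the mean of the normals, on the log2(scaled FPKM + 1) scale, for the 44 members tested; dashed lines mark 2-fold between the tumours. P4ha1 and Jmjd6 lie high on the diagonal, Ogfod2, Alkbh7 and Phyh low on it, and Plod1 lies furthest from it, at 5.48-fold.

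The scaling between libraries set how many members passed. With FPKM as deposited, 8 members were higher (Alkbh8, Jmjd4, Jmjd6, Kdm3a, P4ha1, P4ha2, P4htm and Plod3) and 0 lower, against 28.0% of all genes higher and 3.24% lower. When the FPKM sum over genes below 1% of it was the scale, 6 were higher (background 19.3%) and Ogfod2 was lower (4.21%). With quantile normalization 2 were higher (6.88%) and Ogfod2 was lower (6.13%). Of 44 members, 25 had a positive log2 fold change as reported, 38 with FPKM as deposited, 34 with the sum and 23 with quantiles. The median gene moved likewise, from 0.07 to 0.86, 0.62 and 0.01, so the members shifted with the genes at large. P4ha1 and Jmjd6 were higher, and Ogfod2, Alkbh7 and Phyh lower, under all 14 alternatives, while the calls changed.

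Other settings left fewer members past the threshold. A pseudocount of 0.1 left 1 member higher and 2 lower (background 9.92% and 6.18%), as did a pseudocount of 0.5 (10.2% and 7.68%). The same counts came from a filter on the mean (7.34% and 6.58%), from a fit without the intensity trend (9.19% and 6.4%) and from voom (7.95% and 7.51%). With low genes kept, 0 passed in either direction (1.44% and 1.46%), with 17072 genes tested. Taking the row with the highest mean in place of the sum of repeated names left the counts as they were (9.86% and 8.32%).

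Leaving out 1 library also changed the calls. Without tumour 1, 6 members were higher and 5 lower, against 11.6% and 20.0% of all genes. Without tumour 2, 7 were higher and 9 lower, against 19.7% and 30.8%. Without either normal 0 of all genes passed in limma in either direction (0.0%), although 19.1% without normal 1 and 18.4% without normal 2 had an unadjusted p under 0.05. No call given here was made without both normal prostates.

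**Figure D5:**
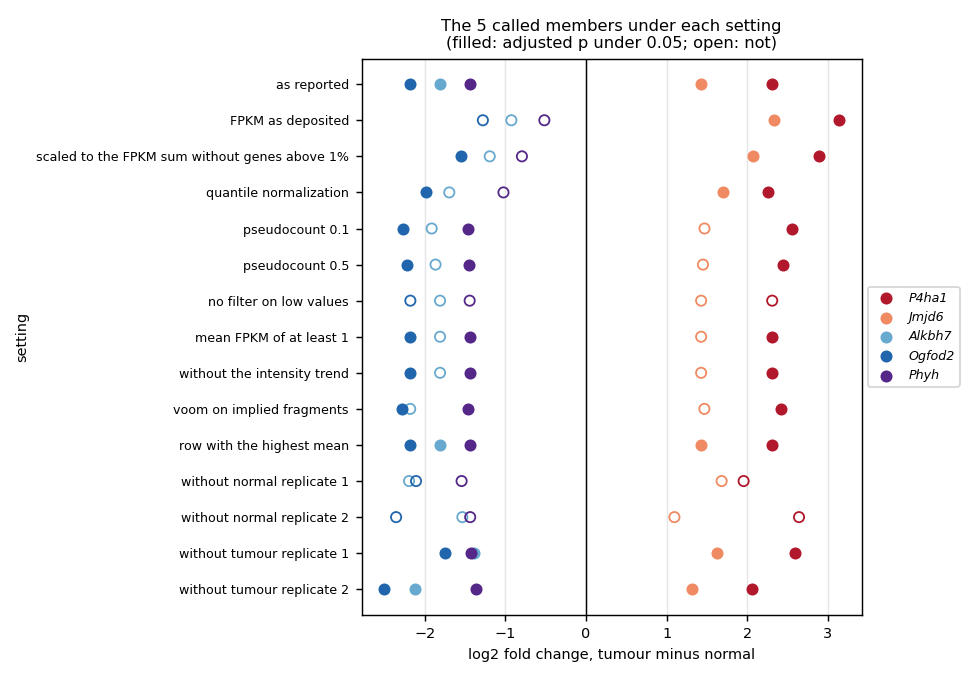
Log2 fold change of the 5 members that passed, as reported and under each of 14 alternatives; filled points passed at an adjusted p under 0.05 and open points did not. P4ha1 stays between 1.96 and 3.14 and Phyh between -1.54 and -0.52, each on its own side of 0.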

How the data were processed

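Per the submitters' processing notes, the authors used Trim Galore, TopHat2 2.0.8, Cufflinks 2.1.1 and Cuffdiff 2.1.1 with GRCm38/mm10; libraries were TruSeq V2, per the labels' protocols, and whether counting used strand is not stated in these sources. The deposited unit is FPKM per gene with confidence bounds, in 24883 rows per library. After 27 rows with dates for names were left out, rows of repeated names were summed, which left 24319 names. FPKM was divided by median-of-ratios factors (0.793, 0.689, 1.34 and 1.50) over 11469 genes above 0 in all libraries. Genes at 1 FPKM or more in at least 2 libraries were tested with limma 3.58.1 in R 4.3.3, with an intensity trend, on log2(scaled FPKM + 1), with no covariate; a fold change on this scale understates the change of low genes. FPKM are not counts: fragments were estimated from the interval width, taken as 2 SD on each side, for voom only. The script was tested on simulated data. Tables and figures were made with Python 3.11.15, pandas 2.3.3, numpy 2.4.6 and matplotlib 3.10.9. Exon overlaps come from GENCODE release M21. Alternatives changed the scaling, pseudocount, filter, trend, row choice or test, or left out 1 library. The members that passed are described fully, others by their 4 values, and list genes when they passed (for long lists, the 4 with the largest change) or are central partners of a member. Members and lists were chosen with earlier results of these data known.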

Additional observations from a re-analysis of the deposited data

How the results depend on the processing

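No paired analysis was possible because the labels give no replicate numbers or pairing. Depth limits the low members: values of 1 to 3 fragments carry little precision, and intervals cover counting error only. Where 1 library of a group is left out, the lone sample is assumed to vary like the other group. All genes called higher numbered 1296, but 3681 with FPKM as deposited, 2537 with scaling to the FPKM sum without genes above 1% and 245 without the filter, and 0 to 2170 without 1 library; genes called lower numbered 1088, but 427, 554, 249 and 0 to 3405. Members called higher numbered 2, but 8 with FPKM as deposited, 6 with the sum, 0 without the filter, 1 with a pseudocount of 0.1 or 0.5, a mean filter, no trend or voom, and 0 to 7 without 1 library. Members called lower numbered 3, but 0 with FPKM as deposited, 1 with the sum, 1 with quantiles, 0 without the filter and 0 to 9 without 1 library. The cause was not tested. Some members that had not passed changed sign. With FPKM as deposited the log2 differences were 0.68 for Kdm2a, 0.76 for Kdm3b, 0.73 for Kdm4a, 0.49 for Kdm4c, 0.38 for Kdm5b, 0.77 for Jarid2, 0.27 for Hif1an, 0.49 for Egln1, 0.094 for Egln2, 0.74 for Plod2, 0.078 for Alkbh3, 0.16 for Alkbh4 and 0.027 for Asph. With the sum they were 0.44 for Kdm2a, 0.50 for Kdm3b, 0.47 for Kdm4a, 0.23 for Kdm4c, 0.13 for Kdm5b, 0.53 for Jarid2, 0.028 for Hif1an, 0.22 for Egln1 and 0.49 for Plod2. Quantiles gave -0.10 for Kdm5c and -0.12 for Alkbh1, and voom -0.055 for Alkbh6. Without 1 library the log2 differences ran from -0.46 to 0.26 for Kdm2a, -0.29 to 0.13 for Kdm3b, -0.40 to 0.19 for Kdm4a, -1.18 to 0.40 for Kdm5b, -0.013 to 0.16 for Kdm5c, -0.39 to 0.38 for Jarid2, -1.25 to 0.33 for Hif1an, -0.80 to 1.68 for Plod1, -0.43 to 0.15 for Plod2, -0.32 to 0.42 for Alkbh1, -0.12 to 1.08 for Alkbh5, -0.37 to 0.47 for Alkbh6 and -0.019 to 0.40 for Fto.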
